A study of Trichoderma reesei with 8 samples.

Results

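The genes described here were the abundant transcripts of *Trichoderma reesei* whose levels stayed close together in both strains and both light conditions. A gene was a member when its mean was at least 800 CPM (counts per Mio counts of a library) in each of the 4 groups and the highest group mean was less than 1.5-fold the lowest. These limits were met by 98 of 9143 genes, or 1.07%. Of the 125 genes past the level limit in all 4 groups, the other 27 had a ratio of 1.5 or more. The members were thus selected on their measured levels and on the ratio between the group means, so both are given below as descriptions. Where test results below include members, the selection partly fixes them. CPM are not divided by gene length and do not order genes by the number of transcripts.

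*T. reesei* is a filamentous ascomycete used for enzyme production. RNA-seq libraries were made from mycelium of the wildtype QM6a and of ∆*ypr2*, a strain derived by deletion of the transcription factor gene *ypr2*, from cultures kept in constant light (LL, 1600 lx) or constant darkness (DD). Liquid cultures of all groups had been grown for 72 h at 28 °C on minimal medium with 1% cellulose and some peptone, after precultures in constant darkness, and each of the 4 groups had 2 biological replicates. The dark cultures were harvested under red safety light. The authors reported that ∆*ypr2* formed much less biomass than the wildtype in darkness, with no significant difference in light. The part of growth in the strain differences in darkness was not tested. In RNA of a whole culture, fewer hyphae of a kind and less transcript per hypha cannot be told apart.

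Library totals ranged from 16.9 to 22.9 Mio expected counts. The deleted gene *ypr2* had 566 and 548 counts in QM6a in light, 3040 and 2636 in QM6a in darkness, 0 and 0 in ∆*ypr2* in light and 10 and 6 in ∆*ypr2* in darkness, so no library went against its label. At this depth the member count that was lowest in any library was 13863 (95% Poisson interval 13633 to 14096, or ± 1.67%, counting error only).

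The ribosome translates messenger RNA into protein. Its small subunit reads the codons and its large subunit joins the amino acids, and each subunit is built from ribosomal RNA and many different proteins. Ribosomal protein genes and elongation factor genes are among the most strongly transcribed genes of growing fungi, and the proteins of a subunit are needed together in the assembled particle.

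Of the 98 members, 42 carried a gene symbol and 56 only a protein ID (TR_ number). Among the 42, 29 encoded ribosomal proteins (12 of the small and 17 of the large subunit) and 3 encoded other components of translation (*tef1a*, *tef2* and *cpc2*). The remaining 10 were the histone gene *hh3*, *atp1* and *atp2* of the mitochondrial ATP synthase, *acl1* and *acl2* of ATP citrate lyase, the 14-3-3 genes *ftt1* and *ftt2*, the ER chaperone gene *bip1*, and *pgd1* and *ran1*, for which no role was assigned here. Together the members took between 14.7 and 16.3% of the counts of a library. In light this share (mean ± SD, n = 2) was 15.7 ± 0.16% for QM6a and 16.0 ± 0.33% for ∆*ypr2*. In darkness it was 14.7 ± 0.075% for QM6a and 15.1 ± 0.037% for ∆*ypr2*.

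The mean level of the members over the 4 groups had a median of 1389 CPM and ran from 862 to 9418 CPM (*tef1a*), against a median of 44.5 CPM over the 8469 genes tested. The ratio of the highest to the lowest group mean had a median of 1.19 and ran from 1.02 to 1.48. It was below 1.1 for 12 members, below 1.2 for 53 and below 1.3 for 73. Over all genes tested the median ratio was 1.60, and 44.0% of them were below 1.5. Among the 27 other genes past the level limit the median was 1.91 and the highest 3.97.

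**Figure D1:**
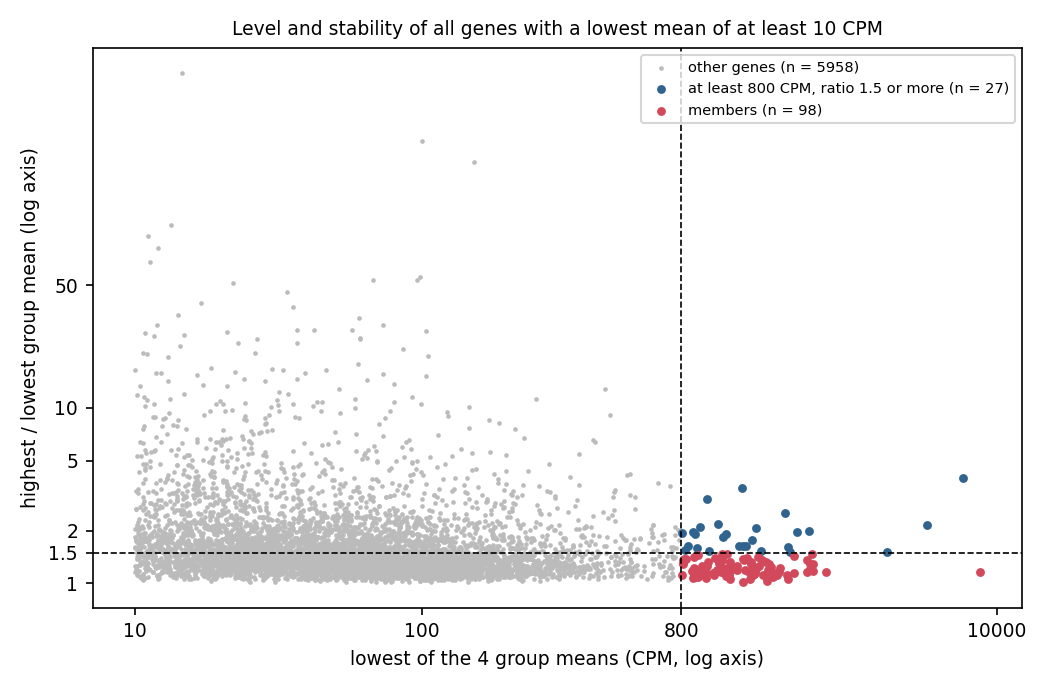
Each point is a gene with a lowest group mean of at least 10 CPM. The horizontal axis is the lowest of the 4 group means (CPM, log axis), the vertical axis the highest divided by the lowest group mean (log axis), and the dashed lines are the limits of 800 CPM and 1.5. The 98 members lie at the lower right, and *tef1a*, at 8729 CPM, is the member farthest to the right.

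The members closest to the ratio limit were TR_78626 (1.48), TR_123650 (1.47), TR_121834 (1.47), *ftt2* (1.45) and *hh3* (1.43). Just outside were TR_121717 (1.51), TR_48266 (1.52) and TR_65290 (1.52). At the level limit, *ran1* had a lowest group mean of 809 CPM and TR_51499 of 811 CPM, and just below it were TR_121800 (758 CPM), TR_73967 (756 CPM) and *ire1* (748 CPM). Membership next to a limit therefore rested on differences of a few percent.

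Among the components of translation, *tef1a*, which encodes elongation factor 1-alpha and delivers aminoacyl-tRNA to the ribosome, had the highest level, in CPM and also per gene length. It had 9410 and 9810 CPM in QM6a in light, 10181 and 10112 CPM in ∆*ypr2* in light, 8822 and 8635 CPM in QM6a in darkness and 8821 and 9553 CPM in ∆*ypr2* in darkness. The 4 light libraries lay above the dark ones, except that the higher ∆*ypr2* dark library exceeded the lower QM6a light library. The group means differed by 1.16-fold, and by 1.06-fold after TMM scaling, a correction of library size in which most genes are taken as unchanged. After that scaling the light and dark libraries of *tef1a* were no longer apart. Orders of libraries below are in CPM, and where TMM scaling ended one this is said. Orders that appeared only with TMM scaling are given for some genes and not for all.

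The elongation factor gene *tef2* varied more. It had 2299 and 2540 CPM in QM6a in light, 2762 and 2654 CPM in ∆*ypr2* in light, 2224 and 2381 CPM in QM6a in darkness and 2733 and 3206 CPM in ∆*ypr2* in darkness. All 4 libraries of ∆*ypr2* lay above all 4 of QM6a, and the ratio between group means was 1.29. The WD-repeat gene *cpc2*, whose homologue in *Saccharomyces cerevisiae* is a protein of the small ribosomal subunit, had 1400 and 1447 CPM in QM6a in light, 1560 and 1468 CPM in ∆*ypr2* in light, 1467 and 1524 CPM in QM6a in darkness and 1589 and 1590 CPM in ∆*ypr2* in darkness. Its groups lay within 1.12-fold of each other in CPM. After TMM scaling the ratio was 1.17, and all its light libraries lay below all its dark libraries. The release factor gene *erf1*, which acts at stop codons, had a ratio of 1.13 and was no member because its lowest group mean was 286 CPM.

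The 12 small subunit members had mean levels from 862 to 2304 CPM (*rps27*) and ratios from 1.04 to 1.42. Among the steady ones was *rps23*, with 2030 and 1922 CPM in QM6a in light, 2006 and 1908 CPM in ∆*ypr2* in light, 1928 and 1815 CPM in QM6a in darkness and 2021 and 1897 CPM in ∆*ypr2* in darkness. All its groups overlapped and the ratio was 1.06. The gene *rps31*, whose homologue in *S. cerevisiae* is made as a fusion of ubiquitin with a ribosomal protein, had the largest ratio of the ribosomal members. It had 2081 and 2122 CPM in QM6a in light, 2056 and 1956 CPM in ∆*ypr2* in light, 1483 and 1481 CPM in QM6a in darkness and 2020 and 1991 CPM in ∆*ypr2* in darkness. QM6a in darkness stood apart, below the other 6 libraries, and QM6a in light lay above both other groups, though not above ∆*ypr2* in darkness after TMM scaling.

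The small subunit member with the highest CPM went the other way. For *rps27*, QM6a in darkness was highest with 2546 and 2540 CPM, against 2260 and 2168 CPM in QM6a in light, 2273 and 2257 CPM in ∆*ypr2* in light and 2285 and 2106 CPM in ∆*ypr2* in darkness. The short gene *rps30* was lowest in ∆*ypr2* in darkness, with 1173 and 1050 CPM, while the other 6 libraries held between 1307 and 1400 CPM. The groups of *rps30* other than ∆*ypr2* in darkness overlapped in CPM. After TMM scaling QM6a in darkness lay above both light groups.

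The 17 large subunit members had mean levels from 952 CPM (*rpl17*) to 2141 CPM (*rpl16*) and ratios from 1.06 (*rpl24*) to 1.32 (*rla0*). The gene *rla0* encodes the P0 protein of the ribosomal stalk, which binds the translation factors. It had 1676 and 1838 CPM in QM6a in light, 1900 and 1769 CPM in ∆*ypr2* in light, 1320 and 1465 CPM in QM6a in darkness and 1739 and 1808 CPM in ∆*ypr2* in darkness. As for *rps31*, QM6a in darkness lay below the other 6 libraries. The gene *rpl16* had 2179 and 2164 CPM in QM6a in light, 2268 and 2238 CPM in ∆*ypr2* in light, 1973 and 1956 CPM in QM6a in darkness and 2174 and 2179 CPM in ∆*ypr2* in darkness. The replicates were close in every group, with QM6a in darkness again below all other libraries. For *rpl44* the lowest group was ∆*ypr2* in darkness, whose 2 libraries, 1358 and 1146 CPM, were the least alike of all members in that group (1.18-fold).

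**Figure D2:**
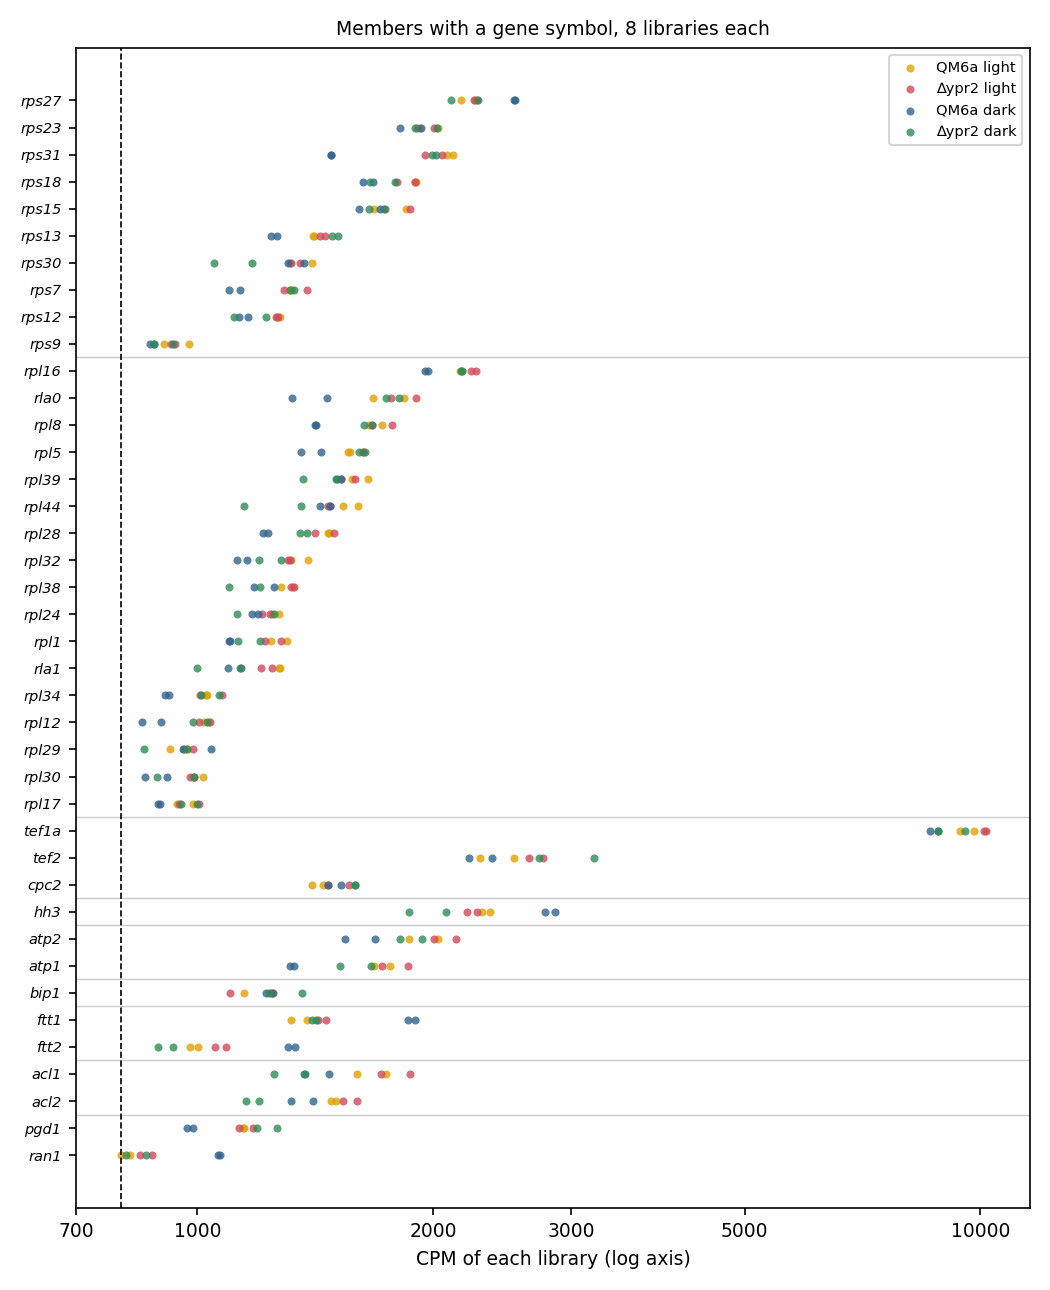
Each row is a member with a symbol and each point a library (CPM, log axis), coloured by group, with the 800 CPM limit dashed and grey lines between the small subunit, the large subunit, translation factors, histone, ATP synthase, ER chaperone, 14-3-3, ATP citrate lyase and unassigned members. Points of *tef1a* lie between 8635 and 10181 CPM, and QM6a in darkness lies to the left for *rps31* and *rla0* and to the right for *hh3*, *ftt1*, *ftt2* and *ran1*.

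The table named 42 ribosomal protein genes, 20 of the small and 22 of the large subunit. All 42 had a ratio below 1.5 (median 1.15, range 1.04 to 1.42), also after TMM scaling. The 13 that were no members missed the level limit, with lowest group means between 403 and 742 CPM, and their ratios, which had not kept them out, ran from 1.08 to 1.28. With edgeR, a gene was called at an adjusted p under 0.01 and a change of at least 2-fold. Of all genes tested, 15.7% were called in ∆*ypr2* against QM6a in darkness, 0.52% in light, 23.8% for light against darkness in QM6a and 17.1% for light against darkness in ∆*ypr2*. Of the 13 ribosomal protein genes that were no members, 0 were called in each comparison by edgeR and by DESeq2, and 6, 0, 5 and 2 had an unadjusted p under 0.05, as had 68.8%, 17.3%, 74.4% and 62.6% of all genes tested. Over all 42 the called number was also 0 in each comparison with both tools (17, 0, 10 and 4 at an unadjusted p under 0.05), and over the 98 members it was 0 (49, 2, 36 and 26). The ratio limit largely fixes this for the members, 29 of the 42 included, so nothing is read from those counts.

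Without a limit on the fold, at an adjusted p under 0.05 in edgeR, 9 of the 42 ribosomal protein genes were higher and 6 lower in ∆*ypr2* in darkness, where 33.4% of all genes tested were higher and 31.8% lower. In light 0 of 42 passed in either direction (background 5.36%). For light against darkness in QM6a, 5 were higher and 3 lower (background 35.8% and 36.2%), and in ∆*ypr2* 1 was higher and 0 lower (27.2% and 30.7%). As 29 of the 42 are members, the ratio limit partly fixes these counts too, and nothing is read from their distance to the background. Of the 13 that were no members, 2 were higher and 3 lower in ∆*ypr2* in darkness, and 3 higher and 1 lower in light in QM6a.

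In CPM, QM6a in darkness was the lowest group for 58 of the 98 members, ∆*ypr2* in darkness for 26, QM6a in light for 13 and ∆*ypr2* in light for 1. Over all genes tested the same groups were lowest for 42.9%, 24.5%, 23.8% and 8.82%. Both light libraries of QM6a lay above both dark libraries for 66 members, 24 of the 29 ribosomal members among them, where 52.0% of all genes tested did so. This order moved with the scaling. The median of all genes tested in light against darkness in QM6a was 0.13 on the log2 scale in CPM and 0.01 after TMM scaling (library factors 0.94 to 1.05), and that of the members was 0.14 and 0.03. After TMM scaling the light libraries of QM6a lay above the dark ones for 46 members, 15 of them ribosomal (background 44.3%), and below for 33 (background 44.0%). QM6a in darkness was then the lowest group for 41 members (41.8%) and the highest for 33 (33.7%), against 36.9% and 35.6% of all genes tested. The ratio itself narrowed to a median of 1.14 (1.02 to 1.54), and 3 members, TR_123650, *ftt1* and *ftt2*, reached 1.5 or more.

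**Figure D3:**
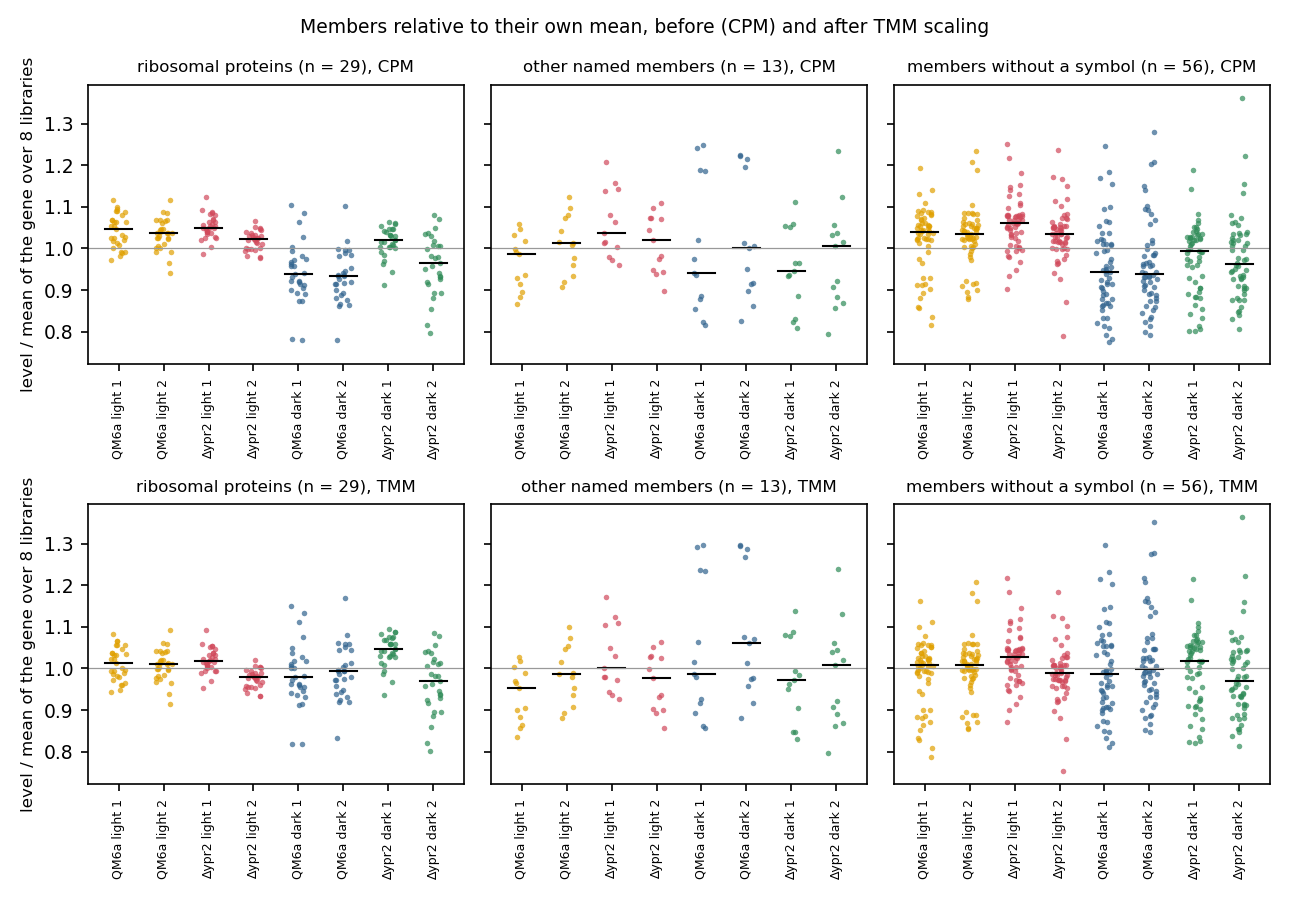
Each point is the level of a member in a library divided by its own mean over the 8 libraries, in CPM (upper row) and after TMM scaling (lower row), for 29 ribosomal members, 13 other members with a symbol and 56 without. Black bars are medians. In CPM the QM6a dark libraries sit lowest, and after TMM scaling the medians of the ribosomal and unnamed members lie close to 1 in every library.

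Among the 33 members highest in QM6a in darkness after TMM scaling were *hh3*, *ftt1*, *ftt2* and *ran1*, which were also highest there in CPM. The histone H3 gene *hh3*, whose protein packs DNA into nucleosomes, had 2310 and 2362 CPM in QM6a in light, 2275 and 2210 CPM in ∆*ypr2* in light, 2780 and 2866 CPM in QM6a in darkness and 2077 and 1862 CPM in ∆*ypr2* in darkness. The groups did not overlap, with QM6a in darkness highest and ∆*ypr2* in darkness lowest. After TMM scaling ∆*ypr2* in darkness overlapped ∆*ypr2* in light. The 14-3-3 proteins bind phosphorylated proteins. Their gene *ftt1* had 1318 and 1381 CPM in QM6a in light, 1461 and 1427 CPM in ∆*ypr2* in light, 1898 and 1860 CPM in QM6a in darkness and 1418 and 1402 CPM in ∆*ypr2* in darkness. The second gene, *ftt2*, had 980 and 1002 CPM, 1089 and 1054 CPM, 1332 and 1304 CPM and 891 and 932 CPM in the same groups. Both had QM6a in darkness above all other libraries, and only for *ftt2* was ∆*ypr2* in darkness below all of them. The gene *ran1* had 1061 and 1068 CPM in QM6a in darkness and between 798 and 874 CPM in the other 6 libraries.

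The ATP synthase genes showed the opposite order. The gene *atp1* had 1682 and 1765 CPM in QM6a in light, 1859 and 1723 CPM in ∆*ypr2* in light, 1312 and 1328 CPM in QM6a in darkness and 1520 and 1666 CPM in ∆*ypr2* in darkness. The gene *atp2* had 1863 and 2028 CPM, 2138 and 2008 CPM, 1543 and 1687 CPM and 1813 and 1937 CPM in these groups. In both, QM6a in darkness lay below all other libraries, and for *atp1* the ∆*ypr2* dark libraries were next, an order that ended after TMM scaling. TMM scaling lowered the ratios from 1.36 to 1.24 for *atp1* and from 1.28 to 1.17 for *atp2*.

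The ATP citrate lyase genes *acl1* and *acl2*, whose enzyme makes cytosolic acetyl-CoA from citrate, followed each other through the libraries. The gene *acl1* had 1598 and 1742 CPM in QM6a in light, 1871 and 1718 CPM in ∆*ypr2* in light, 1371 and 1472 CPM in QM6a in darkness and 1252 and 1369 CPM in ∆*ypr2* in darkness. For *acl2* the values were 1480 and 1503 CPM, 1601 and 1535 CPM, 1318 and 1407 CPM and 1153 and 1200 CPM. All light libraries lay above all dark libraries in both genes in CPM. This ended after TMM scaling, where light and dark libraries of QM6a overlapped for both. For each gene ∆*ypr2* was the higher strain in light and the lower strain in darkness by the group means. The chaperone gene *bip1*, which folds proteins in the endoplasmic reticulum, stayed within 1.11-fold, with 1146 and 1244 CPM in QM6a in light, 1241 and 1101 CPM in ∆*ypr2* in light, 1250 and 1225 CPM in QM6a in darkness and 1361 and 1233 CPM in ∆*ypr2* in darkness. Its groups overlapped in CPM, but after TMM scaling all its light libraries, of both strains, lay below all its dark libraries. For *pgd1*, QM6a in darkness was lowest with 989 and 971 CPM, and the other 6 libraries held between 1130 and 1266 CPM.

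The 56 members without a symbol had mean levels from 964 to 2815 CPM and ratios from 1.02 to 1.48 (median 1.21). The one with the highest CPM, TR_121834, had 3208 and 3398 CPM in QM6a in light, 3519 and 3149 CPM in ∆*ypr2* in light, 2231 and 2318 CPM in QM6a in darkness and 2432 and 2268 CPM in ∆*ypr2* in darkness, and all its light libraries lay above the dark ones. The member with the smallest ratio in CPM, TR_120020, had 1330 and 1293 CPM, 1363 and 1282 CPM, 1335 and 1301 CPM and 1349 and 1317 CPM in the same groups, which overlapped throughout. Its ratio of 1.02 in CPM became 1.09 after TMM scaling, where 23 members had a smaller one. All its light libraries, of both strains, then lay below all its dark libraries. With the same change of scaling TR_120621 went from 1.05 to 1.04.

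Other housekeeping genes of related roles were set beside the members by lists of gene symbols. None of the 7 listed ubiquitin and proteasome genes was a member (ratios 1.61 to 2.12). The member *rps31*, whose homologue is a ubiquitin fusion, was counted with the ribosomal proteins and not in this list. All 7 were lower in ∆*ypr2* in darkness at an adjusted p under 0.05 in edgeR (background 31.8%). Only *psa5*, a proteasome alpha subunit gene, was called by edgeR (log2 fold change -1.14 ± 0.06, ± standard error, adjusted p = 3.9e-07), where 6.05% of all genes tested were called lower. In light against darkness in QM6a all 7 were lower as well (background 36.2%), *psa5* again the only one called (-1.10 ± 0.06, adjusted p = 2e-07). Ubiquitin marks proteins for degradation by the proteasome. The polyubiquitin gene *ubi4* had 1874 ± 52.1 CPM in QM6a in light, 1875 ± 27.2 CPM in ∆*ypr2* in light, 3016 ± 178 CPM in QM6a in darkness and 1948 ± 27.1 CPM in ∆*ypr2* in darkness. Of the 5 histone genes, *hh3* was the only member. All 5 were lower in ∆*ypr2* in darkness at an adjusted p under 0.05 in edgeR (background 31.8%), with log2 differences from -0.57 (*hh3*) to -0.87 (*hh4.1*). The difference of *hh3* was limited by the rule. By edgeR and by DESeq2 0 of 5 were called at 2-fold, and 5 had an unadjusted p under 0.05 in edgeR (background 68.8%). All 5 were also lower in light than in darkness in QM6a at an adjusted p under 0.05 (background 36.2%). In light 0 of 5 histone and 0 of 7 ubiquitin and proteasome genes differed between the strains at an adjusted p under 0.05 in edgeR (background 5.36%). At an unadjusted p under 0.05 the number was also 0 (background 17.3%), and DESeq2 called 0. With lists this short nothing is read from these 0 counts.

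In light against darkness, 14.4% of all genes tested were called lower in QM6a and 13.3% in ∆*ypr2*. Of 4 glycolysis genes none was a member, although 2 passed the level limit. The ratio was 1.97 for *gpd1* and 1.64 for *eno1*, and *hxk1*, at 1.08, missed the level limit with a lowest group mean of 431 CPM. Of 5 genes of citrate and acetyl-CoA metabolism the members were *acl1* and *acl2*, while the acetyl-CoA synthetase gene *acs1* had a ratio of 8.53 and was downregulated in light in both strains (-3.11 ± 0.11 log2 in QM6a and -2.28 ± 0.10 in ∆*ypr2*, edgeR, adjusted p = 1.1e-08 and 1.1e-07), as was the citrate synthase gene *cit1* (-1.25 ± 0.06 and -1.02 ± 0.06, adjusted p = 1.4e-07 and 8.9e-07). The call of *cit1* in ∆*ypr2* was lost with upper quartile scaling. Of 8 genes of folding and secretion in the ER pathway 6 had a ratio below 1.5 and *bip1* alone was a member. The foldase gene *pdi1* (ratio 1.91) and the t-SNARE gene *sso1* (2.07) were downregulated in light in QM6a (log2 fold changes -1.05 ± 0.06 and -1.16 ± 0.06, adjusted p = 4.4e-07 and 1.1e-07), and the call of *pdi1* was lost without replicate 2 of QM6a in darkness. The list of 7 small GTPase genes did not hold the member *ran1*, which had no role assigned here. It also left out *sar1* (ratio 1.13) and *ypt1* (1.26), which were in the ER list and were no members. Of the 7 listed none was a member, 5 had a ratio below 1.5, and *rsr1* was called in light in QM6a by edgeR (-1.60 ± 0.08 log2, adjusted p = 8.4e-08). Among 15 cellulase and hydrophobin genes 0 had a ratio below 1.5.

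**Figure D4:**
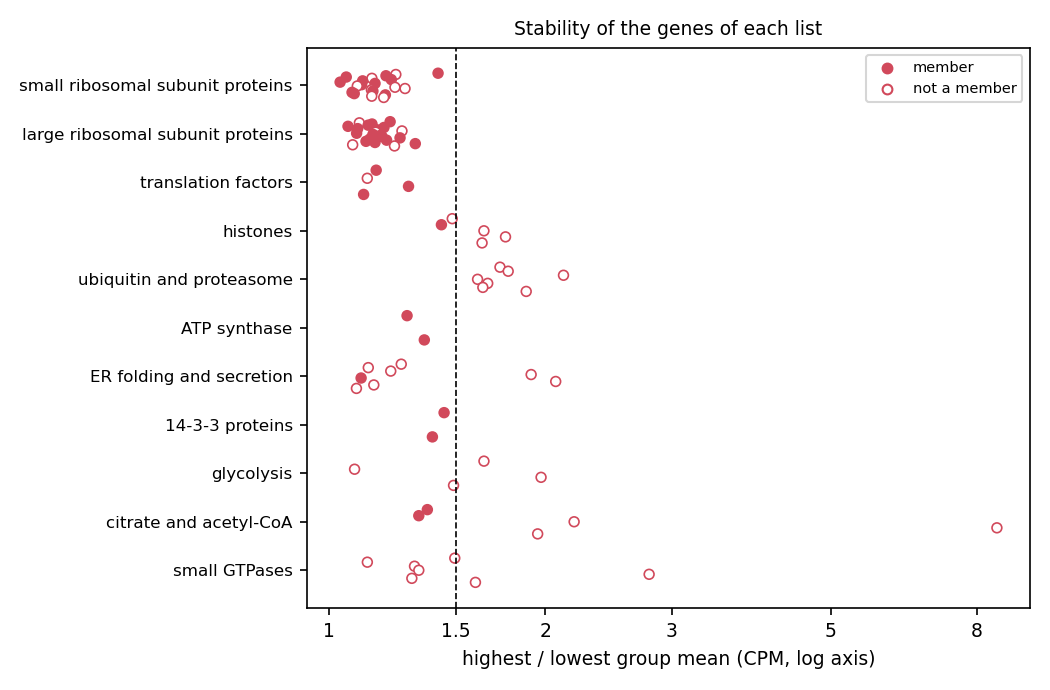
Each point is a gene of a list and the horizontal axis its highest divided by its lowest group mean (CPM, log axis), with the 1.5 limit dashed. Filled points are members. All 42 ribosomal protein genes, *rps31* among them, lie left of the limit, all 7 listed ubiquitin and proteasome genes right of it, and *acs1* lies at 8.53.

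The rule took the mean of each pair of replicates and not their difference. A limit on the ratio of such means still keeps out genes with very unlike replicates, so the spread of the members is not independent of the choice and is given as a description. The 2 replicates of a member differed by a median of 3.02% in QM6a in light, 3.93% in ∆*ypr2* in light, 2.49% in QM6a in darkness and 6.50% in ∆*ypr2* in darkness. Over all genes tested the medians were 5.24%, 5.74%, 5.86% and 8.79%. For the 27 genes past the level limit but outside the ratio limit they were 5.15%, 4.83%, 6.01% and 10.4%. The largest difference within a group among the members was that of TR_47710, 1.22-fold between 2441 and 1996 CPM in ∆*ypr2* in light. Just outside, TR_48266 had 3930 and 8728 CPM in QM6a in darkness (2.22-fold) and 6020 and 3210 CPM in QM6a in light, so that its ratio of 1.52 was smaller than its own replicate difference.

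In ∆*ypr2* in darkness the difference between the replicates followed the length of the member genes. The log2 of replicate 2 over replicate 1 had a Spearman correlation of 0.64 with the gene span (start to end in RefSeq, introns included) over the 98 members and of 0.27 over the 8457 genes tested with a span. In QM6a in light the members gave 0.53, in QM6a in darkness 0.25 and in ∆*ypr2* in light -0.06. All points of a group come from the same pair of libraries, so these are descriptions of 2 libraries each. Among the 49 shorter members (288 to 1316 bp), 42 were lower in replicate 2 of ∆*ypr2* in darkness, and among the 49 longer ones (1320 to 6510 bp) 20 were. The short ribosomal gene *rps30* (390 bp), whose group mean was lowest in ∆*ypr2* in darkness, was among the shorter members, and the part of gene length in that order was not tested.

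**Figure D5:**
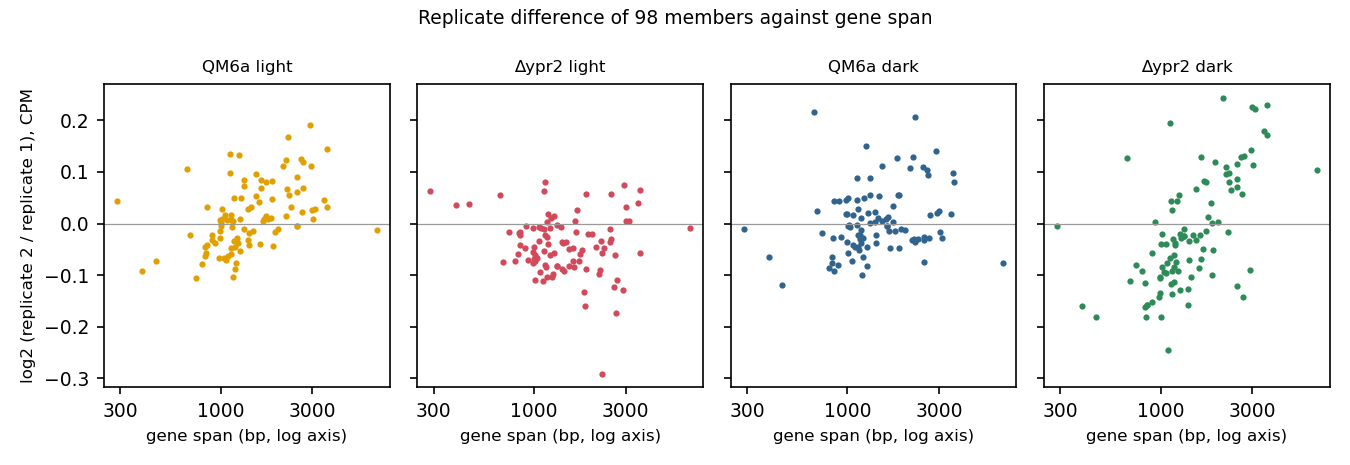
Each point is a member, with its gene span (bp, log axis) against the log2 of replicate 2 over replicate 1 (CPM), in a panel for each group. In ∆*ypr2* in darkness short members lie mostly below 0 and long ones reach 0.24, while in ∆*ypr2* in light there is no such slope (Spearman 0.64 and -0.06, n = 98).

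Set against gene span, the members had a median of 1080 CPM per kb (204.9 to 3769) against 28.4 over the genes tested. On this scale *tef1a* (3769 CPM per kb) stood beside TR_70840 (3725), *rps30* (3295) and *hh3* (2763), and the lowest was TR_78176, the longest member. Small subunit members had a median of 1468 and large subunit members of 1152 CPM per kb. The span of the members had a median of 1318 bp and that of all measured genes with a RefSeq span 1503 bp. In the order of genes in the RefSeq annotation, 13 members lay directly next to another member, in 7 pairs. They included *acl1* with *acl2*, *rpl32* with TR_46490, *rps9* with TR_121278, *rpl12* with TR_80484, *rpl30* with TR_51430, and TR_73450 with TR_121834.

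The expected counts of the members were less often whole numbers than those of other genes, within a tolerance of 0.005. Whole values made up 42.6% of the member values and 76.4% of the table. For 16 members, among them *tef1a*, *rps31*, *rla0*, *ftt1*, *ftt2*, *bip1* and *pgd1*, none of the 8 values was whole. For the 27 genes past the level limit but outside the ratio limit the share was 29.6%. RSEM divides a read that maps to several places into fractions, so the levels of genes with a near-identical copy are uncertain.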

How the data were processed

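RNA from mycelium was sequenced as single reads in 8 libraries, 2 for each of 4 groups. The authors mapped the reads with Bowtie2, processed them with SAMtools and bedtools, and estimated values per transcript with RSEM; versions and the genome build are not stated in the sources at hand. The table the authors deposited is named FPKM, but 76.4% of its values were whole and library totals differed, so they were taken to be expected counts. This was inferred. They were rounded to whole numbers for testing. CPM is an expected count divided by the library total, per Mio. The number of value columns without a sample was 0.

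Genes reaching 0.5 CPM in 2 or more libraries were tested (8469 of 9143, 674 left out). The test was the two-sided quasi-likelihood one of edgeR 4.0.16 (R 4.3.3), after TMM scaling, in 1 fit of the 8 libraries with 4 group means and 4 residual degrees of freedom. P values were adjusted by Benjamini-Hochberg over all genes tested. DESeq2 1.42.0 was an alternative. The scripts were tested on simulated data. Each p value sets a difference against an estimate of replicate spread that all 4 groups share, so it does not show where 1 group spread more than another. With 2 cultures a group this estimate rests on few cultures.

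The members and the lists were chosen with earlier results of these data known, and the lists were built from gene symbols. Symbols and gene spans came from RefSeq (9115 of 9143 IDs matched, 235 with a symbol); gene order came from the same table and no sequences were used here, so planned checks of protein, codon, intron and promoter features were not made, and the per-length levels rest on gene span in place of coding length. The values of 2 members are not reported singly here. Genes named were members with a symbol, those next to a limit or extreme in ratio, level or replicate difference, and the called genes of the lists. Other scalings, filters, limits, tests and leaving out each library were tried.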

Additional observations from a re-analysis of the deposited data

Results flagged for a closer look

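The strain difference of the proteasome gene *psa5* was not alike in light and in darkness by the test of that difference itself. Its level was 118 CPM in QM6a and 124 CPM in ∆*ypr2* in light, and 234 CPM and 110 CPM in darkness, and the interaction term of the edgeR fit, light minus darkness, was 1.20 ± 0.08 log2 (adjusted p = 5.5e-06). For the small GTPase gene *rsr1* the levels were 45.7 CPM and 55.5 CPM in light and 127.6 CPM and 76.6 CPM in darkness, with an interaction of 1.06 ± 0.11 log2 (adjusted p = 4.7e-05). Neither gene met the limits of the abundant stable transcripts. Both were among the called genes of the lists, and the share of all genes tested with such an interaction is not given here.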

How the results depend on the processing

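The number of genes that met both limits was 98, and 96 with TMM scaling or DESeq2 size factors, 98 with upper quartile scaling (of which 94, 94 and 96 were among the 98), 85 with levels per gene length (65 shared) and 117 with a ratio limit of 2. It moved by construction to 65 with the stricter ratio limit tried, to 189 with a level limit of 400 CPM and to 24 with 1600 CPM. Leaving out each library in turn gave 96 to 100, and 90 members stayed in all 8 such settings, while the other 8, *hh3* and *ran1* among them, left in at least 1.

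Of all genes tested, 1332 were called in ∆*ypr2* in darkness, 44 in light, 2019 for light in QM6a and 1446 for light in ∆*ypr2*. With an adjusted p under 0.05 and no fold limit these became 5520, 454, 6095 and 4909, and of the 42 ribosomal protein genes 15, 0, 8 and 1 passed instead of 0. Most of the 42 are members, so the ratio limit partly fixes the ribosomal counts here and below. Leaving out a library gave 1211 to 1367, 11 to 60, 1899 to 2043 and 1307 to 1426, and 0 ribosomal protein genes each time. In light the number of calls fell from 44 to 20 without replicate 1 and to 11 without replicate 2 of QM6a, and to 14 without replicate 2 of ∆*ypr2*; the cause was not tested. With a replicate block the calls were 1328, 42, 2012 and 1434, and 0 for the ribosomal list. Over all genes tested, low counts included, same-numbered libraries deviated with correlations of -0.08 to 0.05. Among the members, replicate 2 over replicate 1 rose with gene span in ∆*ypr2* in darkness, QM6a in light and QM6a in darkness (Spearman 0.64, 0.53 and 0.25), but not in ∆*ypr2* in light (-0.06). Whether same-numbered libraries shared a batch was not tested. Median differences near 0 changed sign with the scaling: that of all genes tested for light in QM6a was 0.13 log2 in CPM and -0.0017 with DESeq2 size factors, and for light in ∆*ypr2* that of the members was 0.07 in CPM and -0.01 with TMM and that of the ribosomal list 0.07 and -0.01. With 2 cultures a group, differences smaller than the replicate spread cannot be resolved.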
